A study of Drosophila melanogaster with 15 samples.

Results

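The genes described here are the nuclear tRNA genes of Drosophila melanogaster, as they stand in a map of transcription units on genome build dm6. Members were all genes of the map whose symbol begins with tRNA: and that lie outside the mitochondrial genome, 297 of 17698 genes, in 279 of 15991 transcription units. The map belongs to an mNET-seq study (nascent transcripts are read from elongating polymerase) of pooled embryos at stage 15, sorted by sex. Its 15 samples comprised 4 male and 4 female libraries in which mof was depleted maternally by UAS-mof RNAi, and 3 male and 4 female control RNAi libraries. The mof gene encodes an acetyltransferase of histone H4 that takes part in dosage compensation of the male X. The labels and protocols name no driver for the RNAi and do not say whether replicates came from separate collections. The table used here holds positions, strands and gene names and no value of any sample, so no level is reported, the depth of each library is unknown, and neither the treatment nor the labelled embryo stage could be checked against markers. No test was made: neighbouring copies are not independent, and the counts below describe a single annotation.

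Transfer RNAs carry amino acids to the ribosome and read codons through a triplet called the anticodon. Their genes are transcribed by RNA polymerase III from promoter elements inside the gene, not by RNA polymerase II, and the genome carries many copies of most of them. tRNAs that share an amino acid and an anticodon are isoacceptors of one kind. Numbers in the symbol name the isodecoder (a distinct mature sequence) and then the copy, so tRNA:Gly-GCC-1-4 is the fourth copy of the first isodecoder of the glycine tRNA with anticodon GCC.

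Of the 297 members, 290 were genes and 7 were pseudogenes. The 290 genes covered all 20 standard amino acids, the initiator methionine tRNA (iMet), which starts every protein, and the selenocysteine tRNA (SeC). They fell into 45 isoacceptor classes with 44 different anticodons, since elongator and initiator methionine tRNAs share CAT. The median class had 6 genes, and 9 classes with 10 or more genes held 106 of the 290 genes (36.6%).

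Copy number ran from 14 genes to 1. Asp-GTC and Gly-GCC had 14 genes each, Glu-CTC and Lys-CTT 13 each, and Ala-AGC 12. Arg-ACG, Arg-TCG, Asn-GTT and Tyr-GTA followed with 10 each, and Ile-AAT with 9. There were 8 genes each of Gln-CTG, Leu-CAG, Phe-GAA, Ser-AGA, Thr-AGT and Trp-CCA, and 7 each of Cys-GCA, Pro-AGG and Val-CAC. Classes of 6 genes were Glu-TTC, Gly-TCC, Lys-TTT, Met-CAT, Ser-GCT, Thr-TGT, Val-AAC and iMet-CAT. His-GTG, Pro-CGG and Pro-TGG had 5 genes each, and Gln-TTG, Leu-AAG, Leu-CAA, Leu-TAA and Ser-CGA 4 each.

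The rarest classes were mostly those that share an amino acid with a larger class. Ala-CGC, Arg-CCT, Arg-TCT and Thr-CGT had 3 genes, and Ala-TGC, Ile-TAT, Leu-TAG, Ser-TGA and Val-TAC had 2. The only class with 1 gene was SeC-TCA, which reads a stop codon as selenocysteine (tRNA:SeC-TCA-1-1, 2R from 11357564 to 11357650, minus strand). Summed by amino acid, arginine had most genes (26, over 4 anticodons), followed by leucine (22, over 5), glycine and serine (20 each) and glutamate and lysine (19 each). Fewest among the standard amino acids were histidine (5) and cysteine (7), each read by 1 anticodon. Elongator and initiator methionine tRNAs had 6 genes each.

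**Figure D1:**
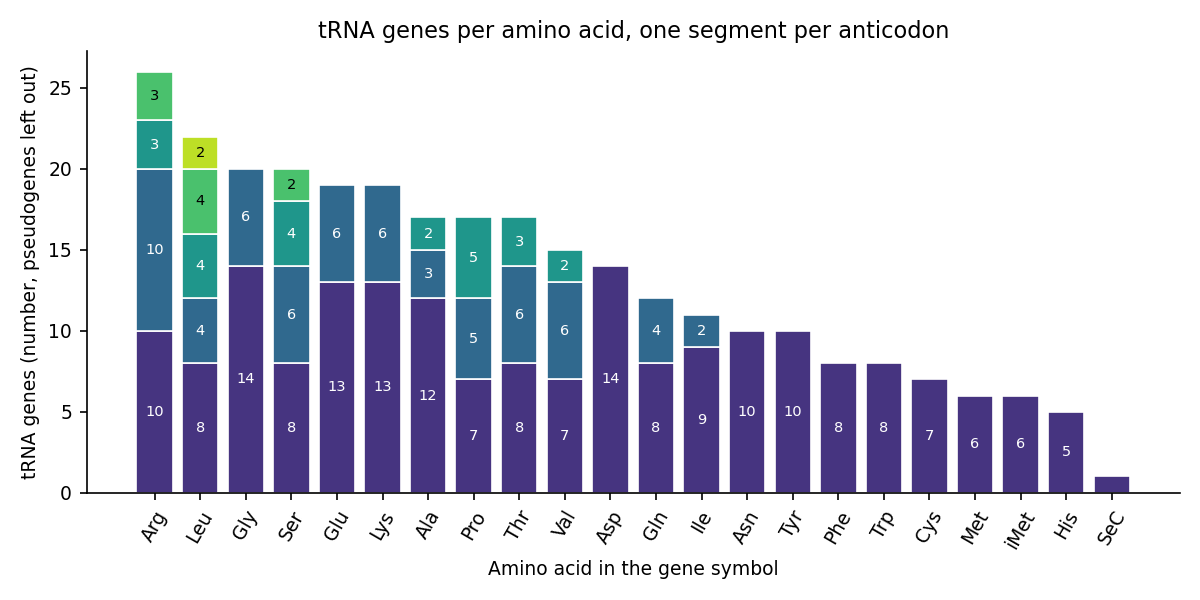
Number of tRNA genes (vertical axis, pseudogenes left out) for each amino acid in the symbol (horizontal axis). Each segment is 1 anticodon and carries its number of genes except for the single SeC gene: Arg stands highest with 26 genes over 4 anticodons, and Asp reaches 14 with 1 anticodon.

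The anticodons followed the pattern known for eukaryotes, in which adenosine at the first position is converted to inosine and reads codons that end in C as well as T. Grouped by their last bases, 8 of 16 sets of anticodons had a gene whose anticodon begins with A and 8 had one that begins with G, and no set had both. Those with A were Ala-AGC, Arg-ACG, Ile-AAT, Leu-AAG, Pro-AGG, Ser-AGA, Thr-AGT and Val-AAC, 64 genes in all. Those with G were Asn-GTT, Asp-GTC, Cys-GCA, Gly-GCC, His-GTG, Phe-GAA, Ser-GCT and Tyr-GTA, 74 genes in all. Gly-GCC was thus the class with G among the families of 4 codons for 1 amino acid, and the others of that kind had A.

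Of the 61 sense codons, 43 had a gene with the exactly complementary anticodon and 18 had none. Of those 18, 16 end in C or T and are the second codon of the pairs just described. The others were the arginine codon CGG and the glycine codon GGG, with no gene for the anticodons CCG and CCC. Both are codons that another tRNA of the same amino acid can read by wobble pairing at the third codon position.

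Copies of an isoacceptor were mostly the same isodecoder by their symbols. The 290 genes carried 86 isodecoder names, of which 40 had 1 gene and 46 had several. The repeated isodecoders held 250 genes (86.2%). These counts use the symbols of the map. RefSeq, another gene annotation, gives tRNA:Tyr-GTA-3-1 and tRNA:Glu-CTC-4-1, both among the 40, the number of a repeated isodecoder. Gly-GCC had 13 copies of 1 isodecoder, and all 13 Lys-CTT genes, all 10 Arg-ACG genes, all 10 Asn-GTT genes and all 9 Ile-AAT genes bore a single isodecoder number. At the other end, each of the 4 Leu-TAA genes and each of the 3 Arg-TCT genes had a number of its own.

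Gene length separated 3 structural kinds of tRNA. Most genes measured 71 to 74 bp (235 of 290, 81.0%), the length of a tRNA with a short variable arm. The 39 genes of 80 to 87 bp were those of leucine and serine, which are known for a long variable arm, other than Leu-CAA, and the SeC gene of 87 bp. Leu-TAG genes measured 80 bp, Leu-AAG 82 bp, Leu-CAG 83 bp and Leu-TAA 84 bp, and all 4 serine classes 82 bp. No gene lay between 75 and 79 bp.

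The 16 genes over 90 bp were all the genes of the 3 classes that are known to carry an intron in flies: Tyr-GTA, Leu-CAA and Ile-TAT. Ile-TAT genes measured 98 bp and 100 bp, and Leu-CAA genes 121 to 127 bp. Tyr-GTA was the most varied class. Of its 10 genes, 7 measured 93 to 95 bp, while tRNA:Tyr-GTA-2-1 on X measured 108 bp, tRNA:Tyr-GTA-1-2 on 2L 121 bp and tRNA:Tyr-GTA-3-1 on 2L 186 bp. The longest is a copy inside Ntl (2L from 7711476 to 7711661, plus strand).

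The 7 pseudogenes were scattered. On X lay tRNA:Glu-CTC-6-1Psi (71 bp, in the unit of CG15765) and tRNA:Ile-AAT-2-1Psi (75 bp, in the unit of CG32521). On 2R lay tRNA:His-GTG-2-1Psi and tRNA:Glu-CTC-5-1Psi (72 bp each), each at the end of a cluster that holds genes of its amino acid. On 3L lay tRNA:Thr-AGT-3-1Psi (74 bp, opposite TrpA1, an ion channel gene) and tRNA:CR32123:Psi, whose symbol gives no amino acid and whose unit of 53 bp was the shortest of all members. On 3R, tRNA:Lys-CTT-2-1Psi (73 bp) stood at the end of a group of Lys-TTT genes.

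tRNA units lay close to each other. With units joined at an edge-to-edge distance of at most 5 kb, 208 of the 279 units (74.6%) stood in 62 clusters and 71 stood alone. Some members share a long unit with a host gene, and its bounds then bridge distant copies. Set by the bounds of the tRNA genes themselves, 219 of 297 genes (73.7%) stood in 69 clusters with a median span of 923 bp, and 78 stood alone. Over all units of the nuclear map, tRNA units included, 96.0% had another unit within 5 kb, so a neighbour at that distance is no mark of tRNA genes, whereas here the neighbour is another tRNA gene. Of the 69 clusters, 39 were pairs, 30 held 3 or more genes and 12 held 5 or more. The 12 largest were the same loci under both kinds of bounds.

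The fullest locus by unit bounds lay on 3R and held 17 units with 18 genes from 17617761 to 17669985, among them those in the host units of CG43175 and CG14322. By the bounds of the tRNA genes, its main part held 11 genes from 17617761 to 17631750: 4 Ala-AGC, 3 Pro-TGG, 2 Thr-AGT, and 1 each of Val-CAC and Val-AAC, on both strands. A further 4 genes of Ala-AGC and Pro-TGG followed from 17645307 to 17646755. Over the whole map, by gene bounds, 10 of the 12 Ala-AGC genes and 4 of the 5 Pro-TGG genes stood in clusters. The 10 include tRNA:Ala-AGC-2-11, in another cluster of 3R, but not tRNA:Ala-AGC-2-10 of this locus, which stood alone by gene bounds.

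On 2R, 16 genes in 11 units lay in and around EcR, the ecdysone receptor gene, over 83887 bp. The densest part held 11 genes from 6161535 to 6171759, namely 4 Lys-CTT, 3 Asn-GTT, 3 Arg-ACG and 1 Ile-AAT gene. Here the strand changed often: 7 genes pointed one way and 4 the other. A set of 3 Asn-GTT genes lay nearby (6152603 to 6153579), on alternating strands.

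Other mixed clusters were smaller. On 2R from 19725620 to 19729353, 8 members stood in 3734 bp, with 2 iMet-CAT genes followed by Glu-TTC, Glu-CTC and the Glu pseudogene. On 2R from 13430282 to 13432794, 5 Ile-AAT and 2 Leu-CAA genes lay inside CG42321. On 3L from 3095737 to 3097590, 4 Cys-GCA and 2 Lys-CTT genes lay within 1854 bp inside Cht7, a chitinase gene. On 3R from 8139533 to 8141042, 1 Asn-GTT and 5 Arg-ACG genes pointed the same way, and on X from 14014814 to 14017284 so did 5 Arg-TCG and 2 Ser-CGA genes.

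The remaining clusters of 5 or more held a single amino acid. The Glu-CTC cluster on 3L (1397695 to 1401852, 6 genes) and the Leu-CAG cluster on 3L (8060214 to 8068290, 6 genes) were each on 1 strand. The Gln-CTG cluster on 2L (2009155 to 2013250, 5 genes), the histidine cluster on 2R (12333926 to 12336804, 4 genes and the pseudogene) and the lysine cluster on 3R (6819266 to 6823035, 4 Lys-TTT genes and a Lys-CTT pseudogene) ran on both strands. The histidine cluster held all but 1 of the 5 His-GTG genes of the map.

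**Figure D2:**
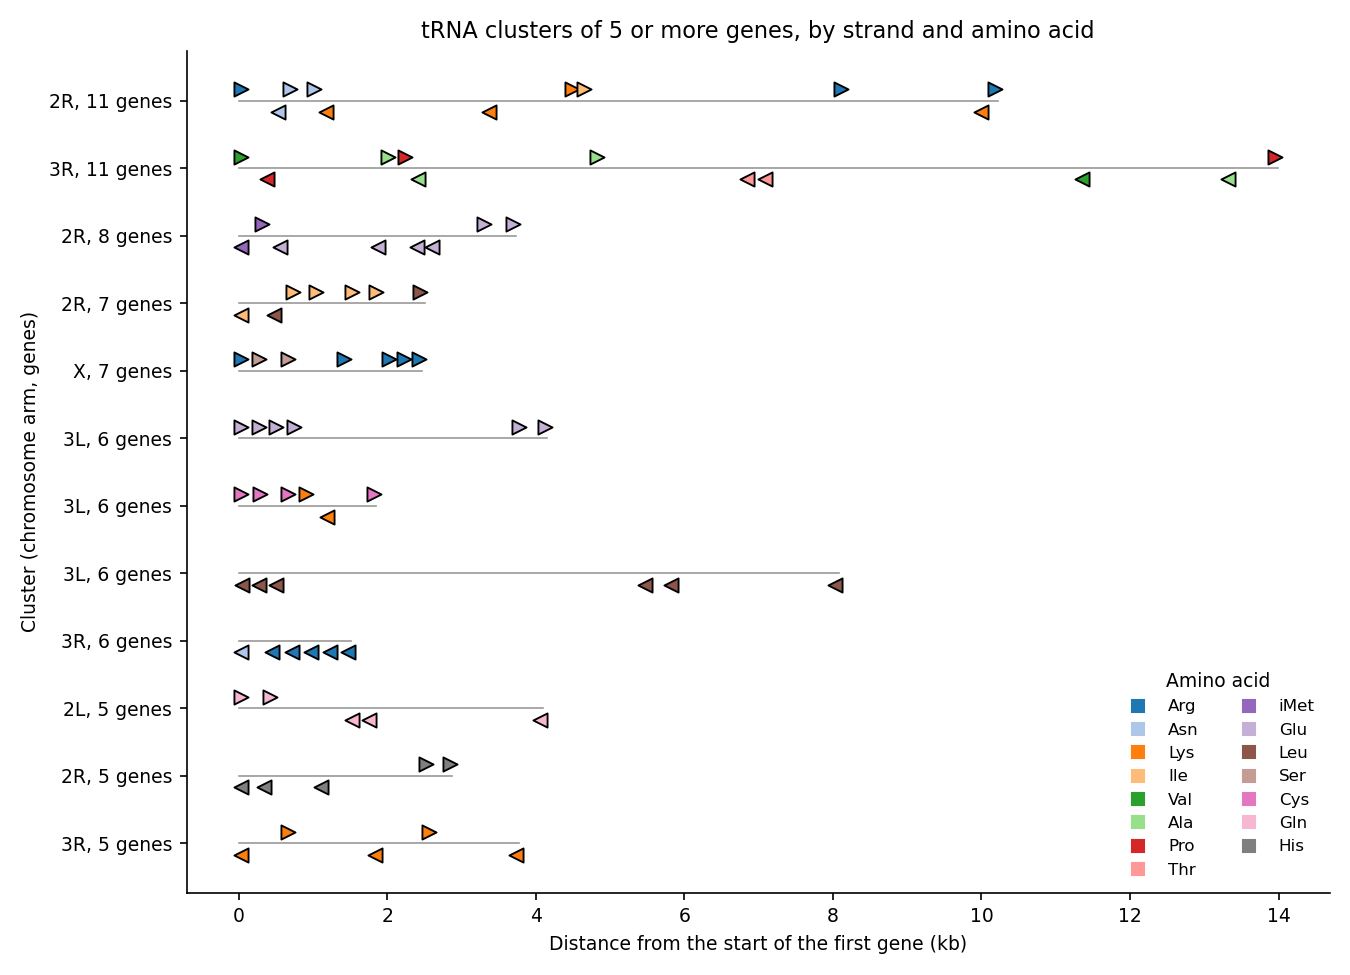
Each line is 1 of the 12 clusters of 5 or more tRNA genes, with pseudogenes, drawn from the start of its first gene (horizontal axis, kb), labelled by arm and number of genes. Triangles are genes, above the line and pointing right on the plus strand, below and pointing left on the minus strand, coloured by amino acid: 8 clusters have both strands and 4 have 1, among them the 7 genes on X.

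Most clusters were uniform in what they encode and mixed in strand. By gene bounds, 47 of 69 clusters (68.1%) held a single anticodon and 49 a single amino acid, and 20 held several amino acids, with the pseudogene of unknown amino acid standing outside any cluster. Both strands occurred in 44 of 69 clusters (63.8%), in 25 of the 39 pairs (64.1%) and in 19 of the 30 larger ones (63.3%). By unit bounds it was 40 of 62 (64.5%). The share of mixed clusters over all units of the map was not computed, so mixed strands are not shown to be particular to tRNA genes.

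Neighbours inside clusters formed 150 pairs of consecutive tRNA genes. Of these, 84 (56.0%) pointed the same way, 34 (22.7%) were divergent and 32 (21.3%) convergent. Among all 10583 pairs of consecutive non-overlapping units within 5 kb, 52.2% were on the same strand, 28.3% divergent and 19.4% convergent. The shares on the same strand, 56.0% and 52.2%, are unlike measures, since tRNA pairs were set by gene bounds and the others by unit bounds. Neighbouring tRNA genes that share a joint unit are on the same strand by construction. Such pairs cannot occur among pairs of units, so the difference is not read as a trait of tRNA genes.

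In 107 pairs (71.3%) both genes had the same anticodon, and in 92 (61.3%) the same isodecoder. Pairs with the same anticodon were on the same strand in 59.8% of cases, and pairs with other anticodons (43) in 46.5%. Different neighbours recurred in a few combinations: Ala-AGC with Pro-TGG (6 pairs, all on 3R), Gly-GCC with Trp-CCA (4 pairs, 2R), and 3 pairs each of Arg-ACG with Lys-CTT, Arg-TCG with Ser-CGA, Glu-CTC with Glu-TTC and Ile-AAT with Leu-CAA. The pairs of Arg-TCG with Ser-CGA, all on X, were all on the same strand, and those of Arg-ACG with Lys-CTT, all on 2R, were all on opposite strands.

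The median gap between neighbours was 314.5 bp, and 96 of 150 gaps (64.0%) were under 500 bp. Over all unit pairs the median was 383 bp and 57.7% were under 500 bp, but the measures differ. Gaps between tRNA genes run between gene bounds and pass over any other gene, whereas the others run between consecutive units. Median gaps were 314.5 bp for pairs on the same strand, 409.5 bp for divergent and 272 bp for convergent pairs. The closest pair of all was convergent, tRNA:Asn-GTT-1-6 with tRNA:Lys-CTT-1-2, 88 bp apart inside EcR. The closest pair of the same strand was tRNA:Lys-CTT-1-4 with tRNA:Ile-AAT-1-1 (94 bp), also there, and the closest divergent pair was tRNA:Gly-GCC-1-12 with tRNA:Trp-CCA-2-4 on 2R (99 bp). No other gene with known bounds lay wholly between the neighbours in 140 pairs (93.3%).

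**Figure D3:**
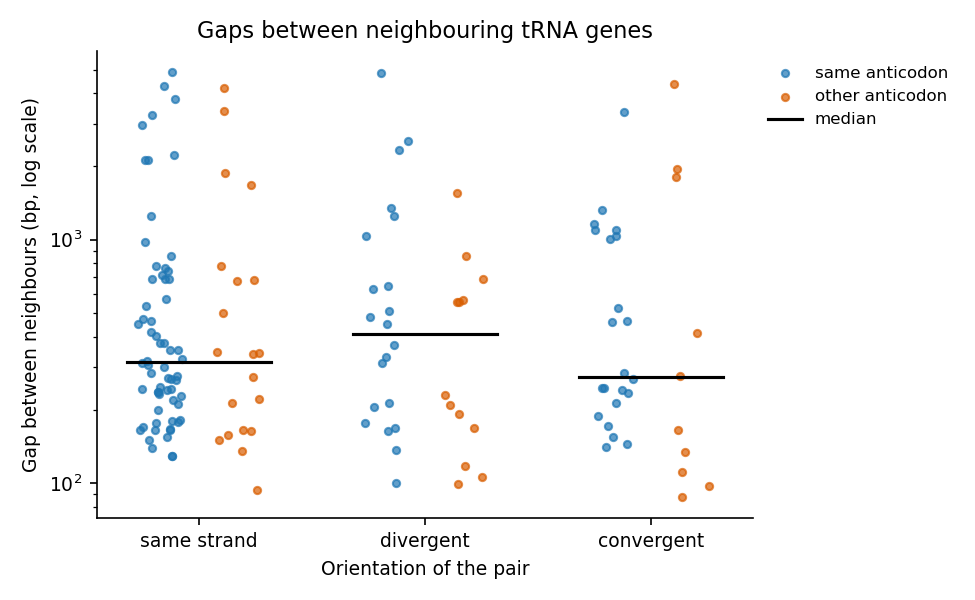
Gap in bp (vertical axis, log scale) between consecutive tRNA genes at most 5 kb apart, by the orientation of the pair (horizontal axis). Each point is 1 of 150 pairs, blue with the same anticodon and orange with another, and the black lines are medians (314.5, 409.5 and 272 bp): the bulk of each column lies under 500 bp.

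Many tRNA genes lay inside other genes. Of the 297 members, 61 (20.5%) shared a unit with a gene that is no tRNA gene, in 43 joint units, which means that they lie on the same strand as that gene. Of all nuclear genes of the map, 16.1% shared a unit. For comparison, the share was 71.9% of 256 microRNA genes, 95.1% of 288 snoRNA and scaRNA genes, and 34.4% of 32 snRNA genes. Opposite to another unit, over their full length, lay 85 members (28.6%), 8 of which were among the 61. The remaining 159 (53.5%) stood outside all other units.

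Counted by gene models with known bounds, 135 members (45.5%) lay wholly inside another gene. Of them, 59 lay inside a gene of the same strand and 84 inside one of the opposite strand, with 8 in both kinds. The same share over all genes was not computed, so 45.5% is not read as a trait of tRNA genes. For 134 of the 135 a host encodes a protein. Whether a tRNA gene lies in an intron or an exon of its host was not tested, since the tables used here hold no exons. By units, 111 of 279 tRNA units (39.8%) overlapped an opposite-strand unit by at least 1 bp, against 39.2% of all nuclear units. Joint units bring in the overlaps of the host. Wholly inside an opposite-strand unit lay 80 tRNA units (28.7%), against 11.1% of all nuclear units. A unit as short as a tRNA gene is easily contained, so single-gene units of at most 200 bp are the closer comparison: 77 of 236 single-gene tRNA units (32.6%) and 37 of 223 others (16.6%) lay inside an opposite-strand unit. That difference was not tested. Single-gene units leave out genes in joint units, 71.9% of microRNA and 95.1% of snoRNA and scaRNA genes but 20.5% of tRNA genes. The other short units are thus a selected set. Linked copies also count separately, and EcR alone held 7 of the 77.

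The 74 host genes held from 1 to 13 members, and 43 held 1. EcR led with 6 tRNA genes on its own strand and 7 on the other. Ptp61F, a protein tyrosine phosphatase gene on 3L, had 9 Glu-CTC genes on the opposite strand, and so 9 of the 10 Glu-CTC genes of 3L. Of these, 3 stood at the same time in the unit of ru, which encodes a rhomboid protease, on their own strand, and 1 in that of CG32320. CG42321 held 2 members on its strand and 6 on the other, and Cht7 1 and 5. In 16 host genes tRNA genes lay on both strands, in 26 on the host's strand alone and in 32 on the other alone.

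Hosts with several copies of 1 class included mim and CheB42c on 2R, which both span 4 Lys-CTT genes on their strand. The pigmentation gene p on 3R has 3 Tyr-GTA genes on its strand, which also lie opposite CG8036. Opposite their strand, gol on 2R held all 3 Ala-CGC genes, Ect4 on 3L 3 Leu-CAG genes and CG4238 on 2L 3 Gln-CTG genes. The adducin gene hts on 2R held 1 Ser-CGA and 2 Val-AAC genes. On its own strand, sr, a transcription factor gene on 3R, held 2 Gly-TCC genes, and mrj on 2R held 1 Gln-CTG and 1 Glu-TTC gene.

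The joint units ranged from 1589 bp (CG31248 with tRNA:Gly-TCC-1-1) to 129895 bp, with a median of 17810 bp, and 33 of the 43 held a single tRNA gene. The longest were those of the axon guidance gene Sema1a on 2L (129895 bp, with tRNA:Phe-GAA-1-3 and tRNA:Asp-GTC-1-6), sm on 2R (113645 bp, tRNA:Glu-TTC-1-3), osp on 2L (90145 bp, tRNA:Pro-AGG-1-3), EcR (81215 bp) and CG32521 on X (75862 bp, the Ile pseudogene). At the other extreme, after the pseudogene of 53 bp, stood 13 single-gene units of 71 bp, all Gly-GCC. By class, 8 of 13 Lys-CTT and 7 of 14 Asp-GTC genes were in joint units, but 1 of 14 Gly-GCC genes and none of the 10 Arg-ACG or 10 Arg-TCG genes. Hosts of Asp-GTC genes included tkv, a receptor gene of BMP signalling on 2L, and caps on 3L.

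In all 43 joint units the tRNA gene lay inside the bounds of the unit, and none began or ended it. Its distance from the unit start had a median of 9901 bp and ran from 499 bp (tRNA:Asp-GTC-1-9, in the unit of CG9289) to 89873 bp. A read from such a tRNA gene therefore falls in the body of a host unit on the same strand in this map. In 2 joint units (those led by d and by CG45067) the tRNA gene lay in no gene model of its strand with known bounds.

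For the 159 members outside other units, distance was taken to the nearest unit with a gene that is no tRNA gene, passing over units of tRNA genes alone. Its median was 884 bp. Such a unit lay within 500 bp for 63 of them (39.6%) and beyond 5 kb for 29. The same distance over all units was not computed, so these counts are not read as a trait of tRNA genes. Closest were tRNA:Gln-TTG-1-2, 14 bp from CG14252 on 3R, and tRNA:SeC-TCA-1-1, 26 bp from the trypsin gene iotaTry on 2R. Farthest by this measure was tRNA:Ser-AGA-3-1 on X, 21581 bp from Ste:CG33247, with tRNA:Ser-AGA-2-1 375 bp away.

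**Figure D4:**
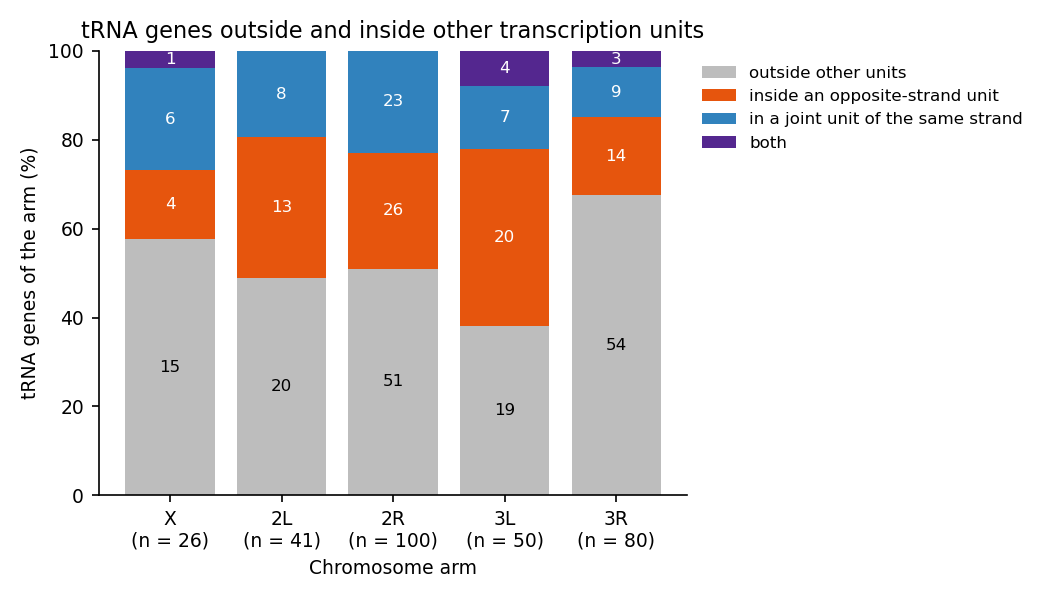
Share of the tRNA genes of each chromosome arm (vertical axis, percent; X first, numbers of genes in the bars) that stand outside other units, inside an opposite-strand unit, in a joint unit of their own strand, or both. On 3L, 19 of 50 genes are outside other units, on 3R 54 of 80 and on X 15 of 26.

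X held 26 of the 297 members (8.75%), whereas 15.1% of all nuclear genes of the map lie there. That is 9.73 tRNA genes per 1000 genes on X, against 18.2 on the autosomes. Among the arms, 2R had 100 (27.6 per 1000 genes), 3R 80 (19.1), 3L 50 (14.5) and 2L 41 (11.7), so X stood nearest to 2L. Chromosomes 4 and Y had none among 111 and 113 genes. Counted as loci, a cluster or a lone gene being 1 locus, X had 15 of 147 (10.2%).

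A single stretch held most X-linked members. From 14014814 to 14117810, over 102997 bp, lay 14 of the 26 X-linked members (53.8%): 6 Arg-TCG, 3 Ser-CGA and 5 Ser-AGA genes, 9 on the plus strand and 5 on the minus strand, all outside other units. Without this stretch X had 12 of 283 members (4.24%), a restriction chosen after its values were seen. The stretch begins with tRNA:Arg-TCG-2-1, tRNA:Ser-CGA-1-1, tRNA:Ser-CGA-1-2, tRNA:Arg-TCG-3-1, tRNA:Arg-TCG-3-2, tRNA:Arg-TCG-3-3 and tRNA:Arg-TCG-3-4, the cluster of 7 on 1 strand. The pair tRNA:Ser-AGA-3-1 and tRNA:Ser-AGA-2-1 (minus strand), tRNA:Ser-AGA-1-1, the group of tRNA:Ser-CGA-1-3, tRNA:Arg-TCG-1-1 and tRNA:Ser-AGA-3-2 on both strands, and tRNA:Ser-AGA-2-2 follow. Ste genes, the Stellate repeats that are silenced in the male germ line, were the nearest units other than those of tRNA genes for 10 of the 14, at 8823 to 21581 bp.

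The other X-linked genes were mostly in or opposite long hosts. tRNA:Gln-CTG-2-1 and tRNA:Pro-CGG-3-1 shared the unit of ec, and tRNA:Gln-TTG-2-1 that of CG12535, where it also lay opposite a unit that begins with Myc, the growth regulator gene. tRNA:Pro-CGG-2-1 shared a unit of 57382 bp with Bx, inside which it lies, and with HisRS, the synthetase gene for histidine. tRNA:Pro-CGG-1-1 lay opposite Dop2R, a dopamine receptor gene, tRNA:Phe-GAA-1-1 opposite CG42340, and tRNA:Arg-TCG-2-2 opposite CG32521, 691 bp from the Ile pseudogene. tRNA:Tyr-GTA-1-1 lay in CG1718 and tRNA:Tyr-GTA-2-1 opposite it. tRNA:Phe-GAA-1-2 stood alone, 232 bp from the unit of RpL17, a ribosomal protein gene.

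X had genes of 8 of the 45 isoacceptor classes and of 6 amino acids, and every class also had an autosomal gene. Ser-CGA had 3 of its 4 genes on X, Arg-TCG 7 of 10, Ser-AGA 5 of 8 and Pro-CGG 3 of 5. Phe-GAA (2 of 8), Gln-TTG (1 of 4), Tyr-GTA (2 of 10) and Gln-CTG (1 of 8) had fewer. The other 37 classes were wholly autosomal.

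The arrangement of members on X was set beside that on the autosomes, with the stretch included. Clusters by gene bounds held 16 of 26 X-linked members (61.5%) and 203 of 271 autosomal ones (74.9%), and 2L alone had 63.4%. Joint units held 7 of 26 (26.9%) on X and 54 of 271 (19.9%) on the autosomes. Among all genes, the joint shares were 16.8% on X and 16.1% on the autosomes. Opposite another unit lay 5 of 26 (19.2%) on X and 80 of 271 (29.5%) on the autosomes. Of the 11 neighbouring pairs on X, 8 were on the same strand, against 76 of 139 (54.7%) on the autosomes, and 6 of those 8 lie in the cluster of 7. None of these differences was tested.

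**Figure D5:**
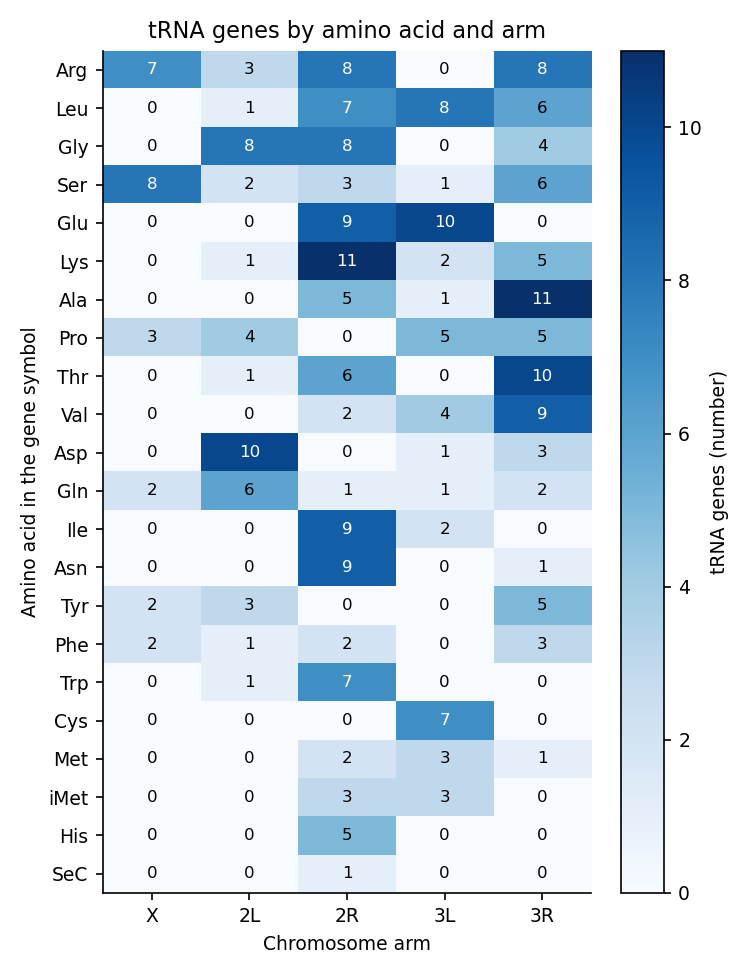
Number of tRNA genes, pseudogenes left out, for each amino acid (rows) and chromosome arm (columns, X first), darker for more genes. Lys on 2R and Ala on 3R reach 11, all 7 Cys genes lie on 3L and all 5 His genes on 2R, and X has genes of 6 amino acids.

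Classes were concentrated on the autosomes too. Of the 44 classes with several genes, 15 lay on a single arm and 7 at a single locus. Those at a single locus were Ala-CGC, Ala-TGC and Ser-TGA on 2R, Ile-TAT and Val-TAC on 3L, and Thr-CGT and Leu-TAG on 3R. Larger classes of 1 arm included Ile-AAT (9 genes) and Glu-TTC (6) on 2R, Cys-GCA (7) on 3L, and Val-CAC (7) and Ser-GCT (6) on 3R. Asp-GTC had 10 of its 14 genes on 2L, Lys-CTT 11 of 13 on 2R, and Glu-CTC 10 of 13 on 3L. Other classes were dispersed: the 6 Met-CAT genes lay at 6 loci, the 5 Pro-CGG genes at 5 and the 4 Leu-TAA genes at 4. Over the whole set 161 members were on the plus strand and 136 on the minus strand (54.2% plus, against 50.1% of all nuclear genes).

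All 32 genes of the pathway list had a unit, 6 of them on X (18.75%, against 15.1% of all nuclear genes). The list holds 20 genes of cytoplasmic aminoacyl-tRNA synthetases, which load tRNAs with their amino acid, 8 of RNA polymerase III and its factors, and 4 of tRNA processing and modification. Their median unit lengths were 2652.5 bp, 3023.5 bp and 2672 bp. On X lay the synthetase genes ArgRS (2377 bp), LysRS (2522 bp), alpha-PheRS (1699 bp) and HisRS in its joint unit, the polymerase gene Polr3A (6559 bp) and the RNA methyltransferase gene Nsun2 (2579 bp). The 7 X-linked arginine and 2 X-linked phenylalanine tRNA genes therefore share a chromosome with a synthetase gene for their amino acid. The other phenylalanine synthetase gene, beta-PheRS, lies on 3R. Serine, proline, glutamine and tyrosine also have tRNA genes on X, but their synthetase genes are autosomal. Lysine and histidine had no tRNA gene on X. On the autosomes, AspRS (8005 bp with CR43468), Brf (16505 bp with CR43196), a subunit of the initiation factor TFIIIB, and RNaseP:RNA (3486 bp with ATPsynC and mir-4949), the RNA of the enzyme that trims the 5′ end of tRNAs, stood in joint units.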

How the data were processed

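The authors deposited a table of transcription units, whose start and end positions are of another kind than counts or levels, written with rtracklayer 1.48.0 per the file headers. The submitters' processing notes name build dm6. No source used here states the release of the gene models or the rule by which genes were joined. Members and lists were chosen with earlier results of these data known.

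Symbols were read for amino acid, anticodon, isodecoder and copy. Gene bounds, of tRNA genes and of others, came from RefSeq genes (assembly Release 6 plus ISO1 MT, equal to dm6). They matched 295 of the 297 members, and 233 of 234 matched single-gene units had identical bounds. The match was not taken as an independent check, since 293 members bear the same symbol in both annotations. A gene without a match took the bounds of its unit if alone in it. Otherwise its bounds were unknown, and it was not searched as a host or as a gene between neighbours. Clusters joined intervals whose edges lay at most 5 kb apart, and an overlap was at least 1 bp. Cluster, pair and overlap functions were tested on simulated intervals (Python 3.11.15, pandas 2.3.3). Genes were named by rule: all classes, X-linked members, pseudogenes, clusters of 5 or more, up to 30 members of joint units, and extremes of length and distance. Opposite-strand hosts and combinations of neighbours were named after their values were seen. Sequences were not used here. By the symbols of the map, 250 genes share their mature sequence with another gene.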

Additional observations from a re-analysis of the deposited data

How the results depend on the processing

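Of 32 alternatives over 10 results, 26 stayed within 1.5 times a count or within the 95% exact binomial interval of a share. Some could hardly have moved, such as 290 members in place of 297 or 43 anticodons in place of 44. The interval takes linked copies as independent, which they are not, so it served as a yardstick only. Units joined within 1 kb or 2 kb, in place of 5 kb, put 66.7% or 68.8% of tRNA units in clusters. The share overlapped by an opposite-strand unit was 28.7% for units wholly inside it. It was 28.6% by the bounds of the tRNA gene and 32.6% for single-gene units, both chosen after seeing the data. Both leave out overlaps of host genes by construction. Without the fullest stretch of X, also chosen after seeing the data, 4.24% of members lay on X. Over the alternatives run, 60 to 69 clusters were found, 54.0% to 59.2% of pairs were on the same strand and 70.2% to 75.7% had the same anticodon. The 2 planned sequence results (anticodons and the A box core) were not run. No paired analysis was possible because the table holds no value of any sample, and no replicate could be left out for the same reason.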

Other observations

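Genes of other RNA polymerase III transcripts stood between neighbouring tRNA genes, in a unit with one or close to one. These few places were chosen after their values were seen. Of the 10 pairs with a gene between the neighbours, most held no such gene but others, such as CG8490, CG14323, snoRNA:185 and mir-4950. In the lysine cluster on 3R, tRNA:Lys-TTT-2-1 and tRNA:Lys-TTT-2-2 flank 7SLRNA:CR42652, an RNA gene of the signal recognition particle, and tRNA:Lys-TTT-2-3 and tRNA:Lys-TTT-2-4 flank 7SLRNA:CR32864. Both pairs are convergent, and both gaps measure 1101 bp. Between tRNA:Val-CAC-2-3 and tRNA:Val-CAC-2-4, 3770 bp apart on 3R, lie CG1142, scaRNA:MeU5-C46 and snRNA:7SK, the RNA that holds the elongation factor P-TEFb inactive. A tRNA gene, tRNA:Asp-GTC-1-11, shares the unit of Esyt2 on 3R (11831 bp) with snRNA:U6:96Aa. On 2R, the nearest unit to tRNA:Glu-CTC-5-1Psi other than those of tRNA genes, 208 bp away, is 5SrRNA:CR33452.

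Names differ between the annotation and the RefSeq table for 2 members: tRNA:Tyr-GTA-3-1 is tRNA:Tyr-GTA-1-9 there, and tRNA:Glu-CTC-4-1 is tRNA:Glu-CTC-2-3. For tRNA:Lys-TTT-2-5 the unit measures 72 bp and the RefSeq gene 73 bp.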
